A study of Homo sapiens with 18 samples.

Results

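The 9 genes described here encode death receptors and the proteins that assemble beneath them: the receptors FAS, TNFRSF10A, TNFRSF10B and TNFRSF1A, the adaptors FADD and TRADD, the initiator caspases CASP8 and CASP10, and the caspase-8 regulator CFLAR. They were taken by symbol from a table of read counts for 58735 genes. All 9 were detected, and 9 of 9 were among the 20301 genes with enough counts to test. The RNA came from OCI-Ly18, a human diffuse large B-cell lymphoma line tagged with green fluorescent protein and grown under the skin of NSG mice, which lack functional T, B and natural killer cells of their own. The 3 mice of the tazemetostat group (M_767, M_768 and M_774) were given tazemetostat, also called EPZ6438, an oral inhibitor of the histone methyltransferase EZH2, at 150 mg/kg daily for 14 days starting 3 days after implantation. The 3 mice of the vehicle group (M_766, M_769 and M_770) received vehicle on the same schedule. Every mouse in both groups then received CART19 cells, engineered T cells that carry a chimeric antigen receptor, and the GFP-positive tumour cells were collected by sorting 11 days after that infusion. Whether dosing went on after the infusion is not stated, the tumours all come from 1 cell line, and samples from mice given UTD cells were not analysed here. The comparison therefore addresses how death-receptor transcripts differed between lymphoma cells of tazemetostat and vehicle mice that had all received CART19 cells.

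Each mouse contributed 3 libraries, lettered A, B and C with no stated meaning, whose counts were summed. Levels are given as CPM, the counts of a gene relative to the scaled total of its library or mouse. Mouse sums held 59132193 to 69816184 counts in the tazemetostat group and 55712115 to 66053406 in the vehicle group. Over all tested genes the median log2 fold change was -0.01. All 13 B-cell markers examined were detected, with summed levels of 5470 to 5710 CPM in tazemetostat mice and 5207 to 5951 CPM in vehicle mice. Of 27 T-cell markers, CD3D, CD3G and GZMK had 0 counts in all 6 mice, and CD3E had 1, 7 and 3 counts in tazemetostat mice and 3, 4 and 9 in vehicle mice. Others of these markers were read in every mouse, among them TRAC, LCK, PRF1 and CD8A. TRAC had 742 to 867 counts in tazemetostat mice and 533 to 833 in vehicle mice, LCK 524 to 675 in tazemetostat and 575 to 830 in vehicle mice, PRF1 216 to 278 in tazemetostat and 235 to 288 in vehicle mice, and CD8A 74 to 104 in tazemetostat and 77 to 100 in vehicle mice. Library C of tazemetostat mouse M_768 stood apart from the other libraries of that mouse, and values without it are given beside many of the results it moves.

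Death receptors are members of the tumour necrosis factor receptor superfamily that carry an intracellular death domain. When FAS ligand binds FAS, or TRAIL binds TNFRSF10A or TNFRSF10B, the adaptor FADD is recruited and gathers CASP8 and CASP10 into a death-inducing complex, in which CFLAR competes with the caspases. TNFRSF1A, the receptor for tumour necrosis factor, first recruits TRADD and usually signals to NF-kB before any death complex forms. Germinal-centre B cells, from which many lymphomas of this kind derive, express FAS, and the FAS pathway is one of the routes by which T cells kill their targets.

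Of the 9 genes, FAS was higher in tazemetostat tumours and the other 8 did not pass the test. The level of FAS was 24.7, 25.1 and 24.1 CPM in tazemetostat mice M_767, M_768 and M_774, against 13.1, 14.9 and 14.4 CPM in vehicle mice M_766, M_769 and M_770. The groups were well apart, since the lowest tazemetostat mouse stood 1.62-fold above the highest vehicle mouse. The log2 fold change was 0.80 (SE 0.097, approximate 95% interval 0.59 to 1.02, edgeR quasi-likelihood adjusted p = 0.0277 over 20301 genes, n = 3 mice per group), which is a 1.74-fold higher level. Over all tested genes 0.0345% passed this threshold of 0.05 in either direction, 0.0197% higher and 0.0148% lower. The sorted cells were measured in bulk, so a larger share of FAS-positive cells and more FAS RNA per cell cannot be told apart.

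The single libraries gave the same separation for FAS. In the tazemetostat group the libraries ran from 22.5 to 28.7 CPM with a median of 24.9 CPM, and in the vehicle group from 11.4 to 16.0 CPM with a median of 14.3 CPM. No library of one group entered the range of the other, a pattern shown in this direction by 0.739% of tested genes and in the other by 0.458%. None of the other 8 genes showed it in either direction. The lowest tazemetostat library was 1.41-fold above the highest vehicle library. Counting was not sparse, with 1420 to 1753 FAS reads in tazemetostat mice and 795 to 869 in vehicle mice. Leaving out one mouse at a time kept the log2 fold change of FAS between 0.76 and 0.84. The edgeR adjusted p was then 0.208 without M_767, 0.205 without M_768, 0.192 without M_774, 0.228 without M_769, 0.00913 without M_766 and 0.0198 without M_770. The call was thus lost without any one of the tazemetostat mice and without vehicle mouse M_769, although the size of the difference stayed in that range. Without library M_768_C the log2 fold change was 0.78 (edgeR adjusted p = 0.021).

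FAS lies at chr10:88990582-89015785 on the plus strand of GRCh38, and 758 bases of its model are shared with ACTA2 on the opposite strand. ACTA2, a smooth-muscle actin, had 113, 84 and 59 counts in tazemetostat mice and 77, 40 and 69 in vehicle mice, and its groups overlapped. RefSeq promoter windows on GRCh38.p14, which run from 250 bases before to 50 bases after a transcript start, were matched by symbol for 5 of the 9 genes (FAS, TNFRSF1A, FADD, CASP8 and CFLAR). FAS windows are shown because FAS carries the difference past the threshold, and the middle one of 3 is left out because it overlaps the first. Both strands were searched for the GC box GGGCGG, the NF-kB consensus site, the interferon-gamma activated form TTCNNNGAA and the core AANNGAAA bound by interferon regulatory factors (IRF), and capitals mark the matches.
FAS window at chr10:88990548-88990847, plus strand: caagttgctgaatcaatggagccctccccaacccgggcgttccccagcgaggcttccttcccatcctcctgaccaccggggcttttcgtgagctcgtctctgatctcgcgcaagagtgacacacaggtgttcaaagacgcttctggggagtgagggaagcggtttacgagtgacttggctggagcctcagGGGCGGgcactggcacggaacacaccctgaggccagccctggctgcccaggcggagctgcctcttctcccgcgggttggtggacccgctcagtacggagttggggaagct
FAS window at chr10:88991181-88991480, plus strand: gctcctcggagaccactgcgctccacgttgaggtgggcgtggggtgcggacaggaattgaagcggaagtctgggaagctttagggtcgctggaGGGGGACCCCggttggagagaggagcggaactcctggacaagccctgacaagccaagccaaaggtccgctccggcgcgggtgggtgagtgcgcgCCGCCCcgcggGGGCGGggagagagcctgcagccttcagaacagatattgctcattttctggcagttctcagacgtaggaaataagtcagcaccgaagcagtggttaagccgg
The first holds 1 GC box. The second holds 2 GC boxes and 1 NF-kB match, GGGGGACCCC, and none of these matches overlap. Of 35116 windows of this length 45.0% hold a GC box, 5.91% an NF-kB match, 22.8% the IRF core and 7.66% the interferon-gamma form. Neither of the printed windows holds either interferon form, and the FAS window between them holds the IRF core once. The printed windows hold 18 and 22 CpG dinucleotides, where the median of all windows is 14. A match is only a match of letters, and its absence says nothing of a factor's binding elsewhere.

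The TRAIL receptors differed less than FAS did. TNFRSF10B, or DR5, is the main death-transmitting TRAIL receptor of many tumour cells. Its level was 135, 133 and 143 CPM in tazemetostat mice, against 115, 131 and 115 CPM in vehicle mice. The mice did not overlap, but vehicle mouse M_769 came close to the lowest tazemetostat mouse. The log2 fold change was 0.19 (SE 0.0901, approximate 95% interval -0.01 to 0.39, edgeR adjusted p = 0.784), and 0.21 without library M_768_C (edgeR adjusted p = 0.548). TNFRSF10A, or DR4, the other death-transmitting TRAIL receptor, had 30.8, 27.0 and 28.5 CPM in tazemetostat mice, against 17.9, 29.4 and 32.6 CPM in vehicle mice. A single low vehicle mouse, M_766, lay far below the other 5 mice, all 3 of its libraries were low (17.2 CPM the lowest), and the groups overlapped. Its log2 fold change was 0.11 (SE 0.183, edgeR adjusted p = 0.963), without M_766 it was -0.10, and without library M_768_C it was 0.16. Both genes lie on the minus strand of chromosome 8, TNFRSF10B at 23020133 to 23069179 and TNFRSF10A at 23190452 to 23225126. TNFRSF10A shares 656 bases with AC100861.1 on the other strand, which held 49.8% as many counts, and strand use in counting is not stated, so its level is uncertain.

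TNFRSF1A (chromosome 12, 6328757 to 6342114, minus strand) was near the lower limit of detection. It had 27, 17 and 5 counts in tazemetostat mice, against 22, 11 and 43 counts in vehicle mice, which is under 1 CPM in each of the 6 mice. The groups overlapped. The log2 fold change of -0.81 had a wide approximate 95% interval of -2.10 to 0.48 (edgeR adjusted p = 0.877). That interval spans both directions, so neither the direction nor the size of a difference was settled. TNFRSF1A varied by 61.5% between tazemetostat mice and 70.5% between vehicle mice. Counting alone gives 24.7% at the mean count of the tazemetostat mice. The log2 fold change was -0.11 without vehicle mouse M_770, -0.43 without M_774 and -1.30 without M_767.

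**Figure D1:**
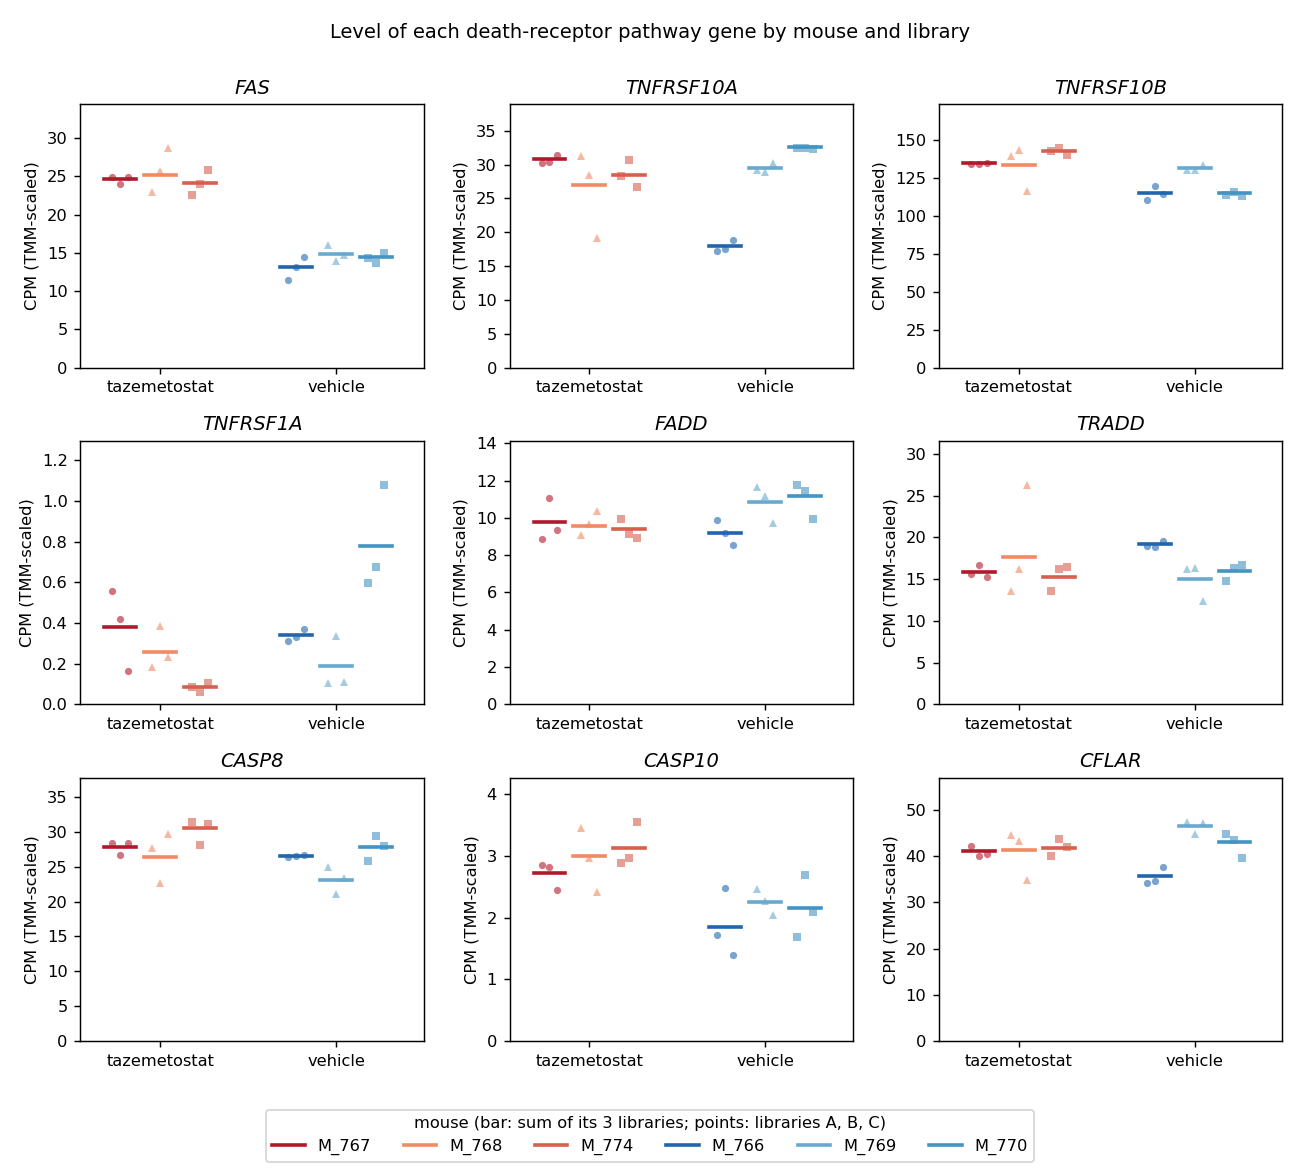
Level of each of the 9 genes in CPM scaled with TMM factors, with tazemetostat mice on the left (red shades) and vehicle mice on the right (blue shades) of each panel. Bars are the sums of the 3 libraries of a mouse and points the single libraries. FAS alone shows a gap between all libraries of the groups, 22.5 to 28.7 CPM against 11.4 to 16.0 CPM.

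The adaptors overlapped between the groups. FADD, which links the receptors' death domains to the caspases, had 9.80, 9.55 and 9.41 CPM in tazemetostat mice, against 9.17, 10.9 and 11.2 CPM in vehicle mice. The tazemetostat mice lay inside the vehicle range. Its log2 fold change was -0.12 (SE 0.122, approximate 95% interval -0.39 to 0.15, edgeR adjusted p = 0.925). TRADD, the first adaptor of the TNFRSF1A complex, had 15.9, 17.7 and 15.3 CPM in tazemetostat mice, against 19.2, 15.0 and 16.0 CPM in vehicle mice. Again the ranges overlapped, with a log2 fold change of -0.04 (SE 0.122, approximate 95% interval -0.31 to 0.23, edgeR adjusted p = 0.978) and -0.13 without library M_768_C. FADD lies at chromosome 11, 70203163 to 70207390 on the plus strand, and TRADD at chromosome 16, 67154180 to 67160298 on the minus strand, where 368 bases are shared with FBXL8 on the other strand.

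The caspases and their regulator are neighbours on the plus strand of chromosome 2, in the order CFLAR (201116104 to 201176687), CASP10 (201182881 to 201229406) and CASP8 (201233443 to 201287711), with 6193 and 4036 bases between them. CASP10, a close relative of CASP8 that mice lack, was the scarcest of the 3 at 2.72, 3.01 and 3.14 CPM in tazemetostat mice, against 1.85, 2.26 and 2.15 CPM in vehicle mice. All tazemetostat mice were above all vehicle mice, while single libraries overlapped (2.42 to 3.56 CPM against 1.40 to 2.69 CPM). Its log2 fold change of 0.50 (SE 0.173, approximate 95% interval 0.12 to 0.88) had an unadjusted p of 0.0156 and missed the threshold over all genes (edgeR adjusted p = 0.61, and 0.443 without library M_768_C). With library B of each mouse alone the log2 fold change was 0.23.

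CASP8, the initiator that starts the proteolytic cascade and cleaves BID, had 27.9, 26.5 and 30.5 CPM in tazemetostat mice, against 26.5, 23.1 and 27.8 CPM in vehicle mice. The ranges overlapped, and the log2 fold change was 0.13 (SE 0.104, approximate 95% interval -0.10 to 0.36, edgeR adjusted p = 0.892). CFLAR, whose protein c-FLIP resembles CASP8 but lacks its proteolytic activity, had 41.1, 41.3 and 41.8 CPM in tazemetostat mice, against 35.8, 46.5 and 43.1 CPM in vehicle mice. The vehicle mice spanned the tazemetostat mice on both sides. The log2 fold change was -0.01 (SE 0.106, approximate 95% interval -0.25 to 0.22, edgeR adjusted p = 0.991), and 0.02 without library M_768_C. The 3 neighbours thus had point estimates of 0.50, 0.13 and -0.01, and none passed. The first CASP8 window is shown for comparison with FAS, since it holds TTCNNNGAA, which is in none of the 3 FAS windows, and the IRF core, which is in 1 of the 3. It was chosen for these matches. The other CASP8 windows hold no TTCNNNGAA, and 1 of them holds the IRF core. Capitals mark, in order, TTCNNNGAA, the GC box and AANNGAAA read on the other strand.
CASP8 window at chr2:201233213-201233512, plus strand: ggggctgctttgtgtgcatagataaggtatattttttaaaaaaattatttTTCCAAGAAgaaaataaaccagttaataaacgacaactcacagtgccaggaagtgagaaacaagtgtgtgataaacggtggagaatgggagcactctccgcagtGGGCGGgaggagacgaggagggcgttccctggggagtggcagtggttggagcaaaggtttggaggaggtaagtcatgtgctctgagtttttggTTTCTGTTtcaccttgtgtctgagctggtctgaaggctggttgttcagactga

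**Figure D2:**
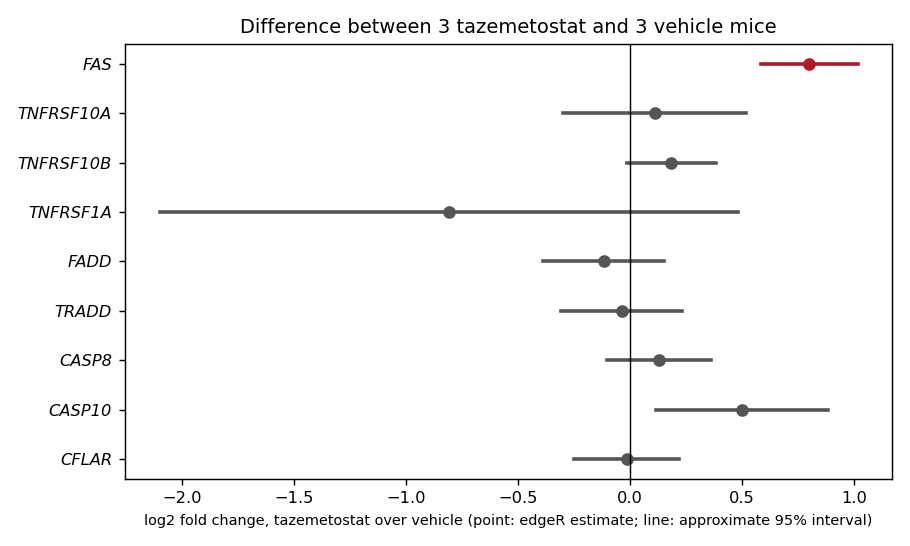
Log2 fold change of each of the 9 genes, tazemetostat over vehicle, with the edgeR estimate as a point and its approximate 95% interval as a line. The interval of FAS (red, past adjusted p 0.05) runs from 0.59 to 1.02, and that of TNFRSF1A is the widest.

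Counted together, 1 of the 9 genes passed the adjusted threshold and 2 of 9 had an unadjusted p under 0.05, where 6.55% of all tested genes did. In 3 of 9 (FAS, TNFRSF10B and CASP10) every tazemetostat mouse was above every vehicle mouse, a pattern of 6.58% of tested genes, and in 0 of 9 the reverse, a pattern of 6.0%. The estimates were positive for 5 and negative for 4, and 48.1% of all tested genes were positive. The median log2 fold change of the 9 was 0.11, beside -0.01 over all tested genes.

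Balance between partners was examined as 5 log2 ratios of levels per kilobase, each with a two-sided exact permutation test over 3 against 3 mice, which cannot give a p below 0.1. FAS stood 3.05 to 3.22 times as high as CFLAR per kilobase in tazemetostat mice and 1.69 to 1.95 times in vehicle mice. These sizes rest on the deposited lengths, 4253 bases for FAS and 22529 for CFLAR. In CPM without length, CFLAR was above FAS in every mouse. The difference between the groups does not depend on length. The log2 ratio averaged 1.66 ± 0.043 in tazemetostat mice and 0.85 ± 0.10 in vehicle mice (SD, n = 3 each, difference 0.81, exact permutation p = 0.1, 0.25 after adjustment over the 5 ratios). The FAS to TNFRSF10B log2 ratio was -2.20 ± 0.082 in tazemetostat mice and -2.81 ± 0.082 in vehicle mice (SD, n = 3 each, exact permutation p = 0.1, adjusted 0.25). For both ratios the groups did not overlap. The CASP8 to CFLAR log2 ratio was 1.08 ± 0.093 in tazemetostat mice and 0.95 ± 0.29 in vehicle mice (SD, n = 3 each, exact permutation p = 0.7), a difference of 0.14 that lay within the spread and was 0.089 without library M_768_C. CASP10 to CASP8 differed by 0.37 (exact permutation p = 0.2) and FADD to TRADD by -0.08 (exact permutation p = 0.6), both with overlapping mice. Without library M_768_C the differences were 0.76 for FAS to CFLAR, 0.57 for FAS to TNFRSF10B, 0.42 for CASP10 to CASP8 and -0.0035 for FADD to TRADD.

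Scaled to the deposited gene length, the receptor transcripts held both the top and the bottom place among the 9 genes. TNFRSF10B was the most abundant of the 9, at 26.5 ± 0.95 CPM per kilobase in tazemetostat mice and 23.3 ± 1.8 in vehicle mice (SD, n = 3 each). TNFRSF10A followed at 9.74 ± 0.66 in tazemetostat mice and 9.03 ± 2.6 in vehicle mice. Next came TRADD (6.35 and 6.51 in tazemetostat and vehicle mice), FADD (5.21 and 5.65), FAS (5.79 and 3.32), CASP8 (3.91 and 3.57) and CFLAR (1.84 and 1.85), as group means in CPM per kilobase. CASP10 (0.389 and 0.275) and TNFRSF1A (0.0603 and 0.109) were the scarcest. The place of FAS was the one that turned with the group: FADD exceeded FAS in 3 of 6 mice, and FAS exceeded CASP8 in 4 of 6. TNFRSF10B was above TNFRSF10A in 6 of 6 mice, and TRADD above FADD in 5 of 6. The order in the middle depends on the length used. With the longest protein-coding transcript in place of the deposited length, a choice made after seeing the data, CASP8 moved to place 3, TRADD to place 4 and FADD to place 6, while TNFRSF10B, TNFRSF10A, FAS, CFLAR, CASP10 and TNFRSF1A kept theirs.

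**Figure D3:**
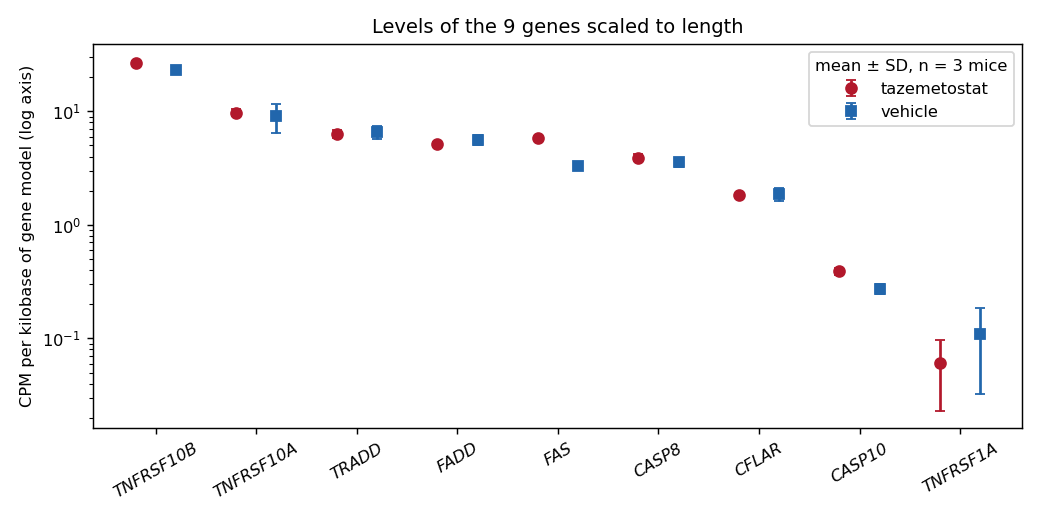
Level of the 9 genes per kilobase of the deposited gene length, on a log axis, as mean and SD over 3 mice, tazemetostat (red circles) left of vehicle (blue squares). TNFRSF10B leads at 26.5 and 23.3 CPM per kilobase, and FAS shows the clearest gap between the groups.

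The 9 genes differed in their spread. FAS varied by 2.19% between tazemetostat mice and 6.28% between vehicle mice (coefficient of variation), and by 7.29% on average between the libraries of a mouse, where counting alone gives 5.16%. CFLAR varied by 0.962% between tazemetostat mice and 13.1% between vehicle mice. Counting alone gives 2.49% per tazemetostat mouse for FAS and 1.93% for CFLAR, so the spread of both between tazemetostat mice was no more than counting gives. TNFRSF10A varied by 6.74% between tazemetostat mice and 28.98% between vehicle mice, where M_766 was low. TNFRSF1A varied by 38.6% between libraries of a mouse, no more than the 44.7% that counting gives.

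Across the 18 libraries, which share mice and scaling, the 36 pairs among the 9 genes had Pearson correlations of log2 CPM from -0.73 to 0.82. The highest was between TNFRSF10A and CFLAR (0.82), and it was 0.84 within mice. TRADD ran against both, at -0.72 with TNFRSF10A and -0.73 with CFLAR. Without library M_768_C the values over libraries were 0.79, -0.69 and -0.69. The within-mouse value was not computed without that library, which was low for TNFRSF10A and CFLAR (log2 shifts of -0.64 and -0.33 against A and B). Vehicle mouse M_766 was the lowest mouse for TNFRSF10A (17.9 CPM) and CFLAR (35.8 CPM) and the highest for TRADD (19.2 CPM). FAS went with CASP10 (0.69) and TNFRSF10B (0.67) over the 18 libraries, but at -0.28 and -0.35 within mice. Those within-mouse values include M_768_C, where log2 shifts against libraries A and B were 0.24 for FAS, -0.41 for CASP10 and -0.28 for TNFRSF10B. They were not computed without it, so their sign is uncertain. FAS and CFLAR had a correlation of 0.07 over the 18 libraries. Without library M_768_C these 3 values of FAS over the remaining 17 libraries were 0.74 with CASP10, 0.84 with TNFRSF10B and 0.25 with CFLAR. FAS with TNFRSF10B was then the highest of the 36 pairs, above TNFRSF10A with CFLAR.

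**Figure D4:**
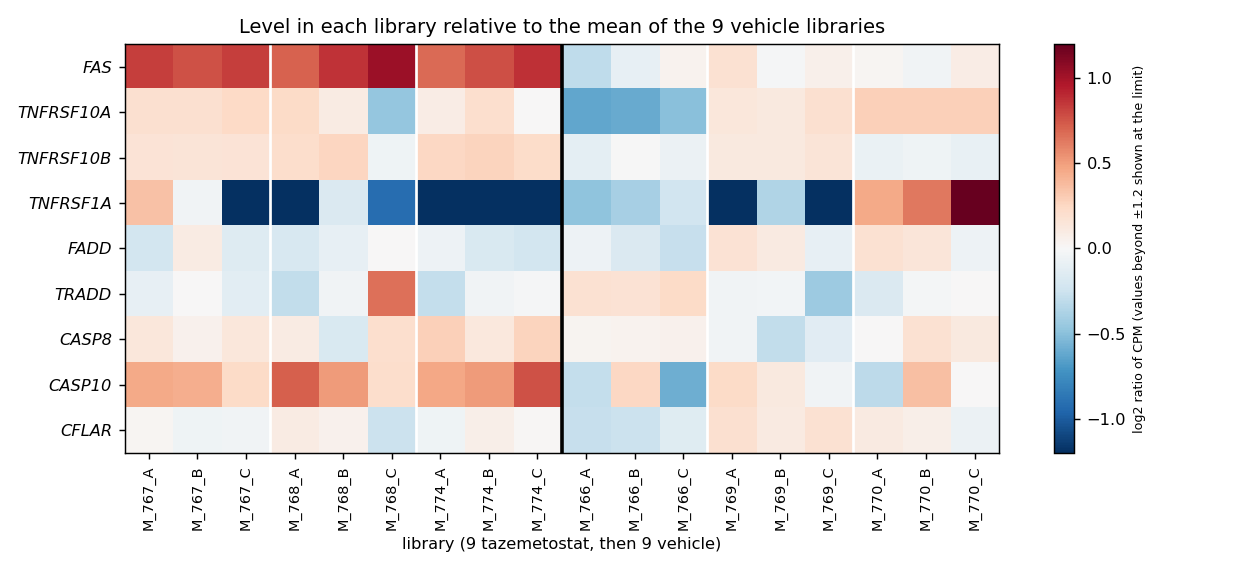
Level of each gene in each library as a log2 ratio to its mean over the 9 vehicle libraries (colour, shown to ±1.2), with 9 tazemetostat libraries left of the black line and 9 vehicle libraries right of it. FAS is raised in all 9 tazemetostat libraries, TNFRSF10A is low in the 3 libraries of M_766, and M_768_C departs from its mouse most clearly for TRADD and TNFRSF10A.

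Among 12730 genes of sufficient level outside the 9, those most like FAS over the 18 libraries were GBP1P1 (Pearson r 0.97), CASP1 (0.96), IRF1 (0.95), APOBEC3G (0.94) and BTG2 (0.93), where the median gene had 0.03 and the 99th percentile was 0.82. GBP1P1, a pseudogene of an interferon-induced GTPase whose reads may be shared with its parent, was at 5.97 ± 0.17 CPM in tazemetostat mice and 2.43 ± 0.27 CPM in vehicle mice (SD, n = 3 each, edgeR adjusted p = 0.0277). CASP1, the inflammasome caspase, was at 12.3 ± 0.42 CPM in tazemetostat mice and 7.77 ± 0.15 CPM in vehicle mice, and IRF1, a transcription factor induced by interferon, at 293 ± 1.4 and 210 ± 8.4 CPM in the same groups (edgeR adjusted p = 0.183 for both). Within mice the 5 correlations with FAS were 0.05 for APOBEC3G and 0.44 to 0.57 for the others. Library M_768_C is included in all correlations of this paragraph, and values without it are not given. For the other 7 genes above 1 CPM, the best match had a correlation of 0.79 to 0.98, among them SKIL for TNFRSF10B (0.93), SDF4 for TRADD (0.93), SASS6 for CFLAR (0.91), AL133243.3 for CASP10 (0.85), ORC5 for CASP8 (0.83) and NGRN for FADD (0.79).

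Of the death ligands, FASLG was all but undetected in the sorted cells. FASLG, the ligand of FAS, had 1, 0 and 0 counts in tazemetostat mice and 2, 0 and 0 in vehicle mice. TNFSF10, which encodes TRAIL, had 424, 379 and 410 counts in tazemetostat mice and 298, 228 and 322 in vehicle mice, or 6.23 ± 0.63 CPM and 4.77 ± 0.98 CPM (SD, n = 3 each, log2 fold change 0.39, edgeR adjusted p = 0.762). TNF had 173, 180 and 80 counts in tazemetostat mice and 17, 56 and 104 in vehicle mice. Vehicle mouse M_770 stood above tazemetostat mouse M_774, and the log2 fold change was 1.09 (SE 0.513, edgeR adjusted p = 0.764). LTA had 70, 81 and 44 counts in tazemetostat mice against 42, 52 and 64 in vehicle mice, and LTB, which anchors lymphotoxin to the membrane, 799, 1578 and 465 against 433, 604 and 986. The remaining ligands stayed too low to test, TNFSF15 with 17, 9 and 2 counts in tazemetostat mice and 0, 10 and 6 in vehicle mice, and TNFSF12 with 5, 3 and 0 against 0, 0 and 1. Of 7 ligands 4 were tested, and 0 passed in either direction.

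Of 11 other receptors of the tumour necrosis factor receptor superfamily 5 were tested and 0 passed. The list holds death-domain receptors, decoy receptors and some that are neither. TNFRSF10D, a TRAIL receptor with a truncated death domain, was at 19.2 ± 0.57 CPM in tazemetostat mice and 17.7 ± 1.5 CPM in vehicle mice (SD, n = 3 each, log2 fold change 0.12, edgeR adjusted p = 0.9). TNFRSF21, or DR6, was at 82.2 ± 9.4 CPM in tazemetostat mice and 75.4 ± 3.5 CPM in vehicle mice, and EDA2R, a receptor for ectodysplasin, at 6.35 ± 0.30 and 5.15 ± 0.94 CPM in the same groups. TNFRSF12A, the receptor for TWEAK, had a log2 fold change of 0.18. TNFRSF6B, the soluble decoy for FAS ligand, had 0 counts in all 6 mice.

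All 26 partners and ubiquitin regulators of the complex were tested and 0 passed, with a median log2 fold change of 0.05. The smallest p belonged to RBCK1, or HOIL-1, a subunit of the linear ubiquitin ligase, at 142 ± 2.8 CPM in tazemetostat mice and 121 ± 7.3 CPM in vehicle mice (SD, n = 3 each, log2 fold change 0.24, edgeR adjusted p = 0.639). CYLD, a deubiquitinase that favours the death complex, was at 65.2 ± 2.6 CPM in tazemetostat mice and 52.9 ± 8.3 CPM in vehicle mice (log2 fold change 0.30, edgeR adjusted p = 0.671). TRAF1 and ITCH, an adaptor and a ubiquitin ligase, had log2 fold changes of 0.29 and 0.23.

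All 14 downstream executioners and mitochondrial factors were tested as well, 0 passed, and their median was 0.01. APAF1, the scaffold of the apoptosome, was at 24.6 ± 3.2 CPM in tazemetostat mice and 19.2 ± 2.4 CPM in vehicle mice without overlap (SD, n = 3 each, log2 fold change 0.36, edgeR adjusted p = 0.635). DFFB, the apoptotic nuclease, had a log2 fold change of -0.47 (edgeR adjusted p = 0.831), with vehicle mouse M_770 at 5.34 CPM far above the other 5 mice. Over these 4 lists of 58 genes, 49 were tested, 33 had a positive and 16 a negative estimate, and the median was 0.10. An unadjusted p under 0.05 was found for 5 of 49 (10.2%), all higher, beside 3.34% of all tested genes in that direction, and 7 of 49 (14.3%) were higher in every tazemetostat mouse, beside 6.58%.

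**Figure D5:**
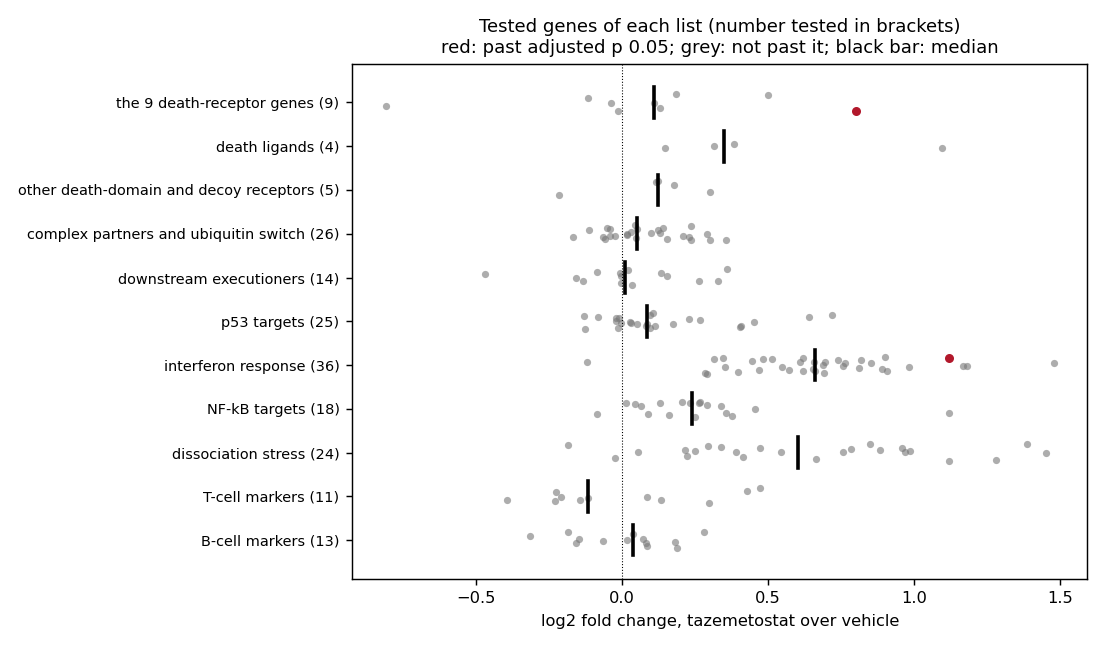
Log2 fold change, tazemetostat over vehicle, of each tested gene in the 9 death-receptor genes, 4 pathway lists and 6 further lists; black bars are medians and red points passed adjusted p 0.05. The pathway medians lie between 0.01 and 0.35, while the interferon list has a median of 0.66 and the dissociation-stress list one of 0.60.

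Other groups of genes are given beside FAS, and their part in its difference was not tested. The 36 interferon-response genes summed to 4334 to 4629 CPM in tazemetostat mice and 2427 to 3493 CPM in vehicle mice, with 35 positive estimates, a median log2 fold change of 0.66 and 1 call, IFI27 (edgeR adjusted p = 0.029). IFI44L, another interferon-induced gene, was at 42.7 ± 15.7 CPM in tazemetostat mice and 15.3 ± 4.3 CPM in vehicle mice (SD, n = 3 each, edgeR adjusted p = 0.183). The dissociation-stress list, genes that tissue handling induces, summed to 4852 to 6122 CPM in tazemetostat mice and 3598 to 5027 CPM in vehicle mice, which overlapped. Its 24 tested genes had a median log2 fold change of 0.60 and 0 calls, led by ATF3, ZFP36 and DUSP1 with log2 fold changes of 0.88, 0.54 and 0.96 (edgeR adjusted p = 0.108, 0.291 and 0.303). An unadjusted edgeR p under 0.05 was found for 12 of these 24, all higher, beside 3.34% of all tested genes in that direction. In 9 of 24 every tazemetostat mouse was above every vehicle mouse, beside 6.58%. For the interferon list these counts were 33 and 24 of 36. T-cell markers, which would report carried-over CART19 cells, summed to 392 to 428 CPM in tazemetostat mice and 422 to 465 CPM in vehicle mice, most of it from IL7R, TRBC2, CD247 and ZAP70, while the CD3 genes were at or near 0 as given above. Myeloid markers summed to 1.13 to 1.64 CPM in tazemetostat mice and 1.29 to 1.62 CPM in vehicle mice. Stromal and endothelial markers summed to 4.71 to 6.82 CPM in tazemetostat mice and 3.62 to 7.31 CPM in vehicle mice. The myeloid, stromal and endothelial sums count human genes, so they do not measure host cells of the mouse.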

How the data were processed

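RNA of sorted tumour cells was sequenced as 18 libraries (NEB NEXT Ultra II kit, per the labels' protocols). The authors deposited whole-number read counts per gene with no normalization, per the values and the file headers, and a gene length in bases beside them. Build hg38 and DESeq2, without version or role, come from the submitters' processing notes. No source used here names the aligner, the counter or the use of strand. The 58735 gene IDs all carry the start and end of GENCODE release 29.

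Because treatment was given to the mouse, counts were summed per mouse (3 against 3). The whole table was fitted with edgeR 4.0.16 in R 4.3.3, using TMM factors, filterByExpr at a minimum count of 10 and the quasi-likelihood test. P-values were adjusted by the Benjamini-Hochberg method and called at 0.05. Library sizes for CPM include the TMM factors, and levels per kilobase use the deposited length. The SE is approximate, taken from the estimate and its F statistic. Alternatives used limma 3.58.1 and DESeq2 1.42.0, and steps were tested on simulated data. Letters were not taken to pair libraries, because deviations of same-letter libraries of different mice correlated at -0.015 on average over 45 pairs. No pair of libraries agreed within sampling noise, so none was treated as a repeat. The genes and lists were chosen with earlier results of these data known. Named genes were those of smallest p in each list and of highest correlation, by rule, and some that the rule selects are not reported here.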

Additional observations from a re-analysis of the deposited data

Results flagged for a closer look

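Library C of tazemetostat mouse M_768 lay far outside the other 8 tazemetostat libraries for 4 of the 9 genes, by a gap test on groups of 9 libraries. TNFRSF10A was at 19.2 CPM there and at 26.6 CPM or more in the others. TNFRSF10B was at 116 CPM, against 133.9 CPM for the next lowest. CFLAR was at 34.9 CPM, against 40.1 CPM for the next lowest. TRADD was at 26.3 CPM, against 16.7 CPM for the next highest. Of 18 groups examined 4 had such a gap, all through this library, where about 1 in 20 is expected by chance for independent values. The libraries share mice and the 4 gaps share a library, so that rate is only a rough guide. Relative to libraries A and B of its mouse, log2 levels in M_768_C were shifted by -0.64 for TNFRSF10A, -0.28 for TNFRSF10B, -0.33 for CFLAR and 0.82 for TRADD, while in the other 5 mice library C shifted between -0.40 and 0.14 over these 4 genes. Library C of M_768 also lay outside the other 5 mice for CASP8 (0.24, against 0.014 to 0.065) and FADD (0.15, against -0.23 to -0.096), and for FAS by a margin within rounding. FAS was at 28.7 CPM in it, against 22.9 and 25.6 CPM in A and B, with no such gap. The departure was not limited to these genes. Libraries of a mouse were also compared over all genes with at least 20 counts per pair. Chi-square per degree of freedom was 67.3 for M_768_C against A, 49.4 against B and 2.02 to 4.81 for other pairs. The cause was not tested.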

How the results depend on the processing

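FAS kept its direction in 19 of 19 alternative fits, with log2 fold changes of 0.75 to 0.85, and was called in 13. It was not called with library A alone (0.75, edgeR adjusted p = 0.176), with library C alone (0.84, adjusted p = 0.432) or in 4 of the 6 fits that left out a mouse (0.79 to 0.84 in those, 0.76 to 0.84 over all 6). The count of the 9 genes called, 1, was 0 in those fits (0 with library A alone, 0 with library C alone, 0 to 1 without a mouse). Over all genes 7 were called, but 252 with no low-count filter, 124 with DESeq2, 225 with the 18 libraries and mouse as random effect, 190 with the library letter added as a replicate block (FAS 0.81), 0 with library A alone, 0 with library C alone and 0 to 59 without a mouse. Estimates near zero changed sign. TNFRSF10A ran from -0.10 to 0.29 without a mouse (-0.10 without M_766) and was -0.080 with library C alone. TRADD ran from -0.11 to 0.084 without a mouse (0.084 without M_766, 0.010 without M_774) and was 0.24 with library C alone. CFLAR ran from -0.10 to 0.073 without a mouse (0.073 without M_769, 0.016 without M_770) and was 0.000185 with library A alone, 0.043 with library B alone and 0.020 without M_768_C. FADD was 0.013 with library C alone. CASP10 was 0.23 with library B alone, and TNFRSF1A ran from -1.30 to -0.11 without a mouse. The CASP8 to CFLAR difference ran from -0.021 to 0.27 without a mouse and was -0.036 with library B alone, and FADD to TRADD ran from -0.27 to 0.028. The cause of these changes was not tested. Intervals cover the spread between mice, and 3 mice per group limit what could be called.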

Other observations

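The 25 p53 targets examined, a group to which FAS itself is often assigned, were all tested, with 17 positive estimates, a median log2 fold change of 0.09 and 0 calls. An unadjusted edgeR p under 0.05 was found for 6 of 25, all higher, beside 3.34% of all tested genes in that direction. In 6 of 25 every tazemetostat mouse was above every vehicle mouse, beside 6.58%. CDKN1A, the cell-cycle inhibitor p21, was at 73.6 ± 6.3 CPM in tazemetostat mice and 44.7 ± 12 CPM in vehicle mice (SD, n = 3 each, log2 fold change 0.72, edgeR adjusted p = 0.37). ZMAT3, an RNA-binding p53 target, and BTG2, an antiproliferative factor, had log2 fold changes of 0.41 and 0.27 without overlap between the mice. Of 21 NF-kB targets 18 were tested, 17 had positive estimates, the median was 0.24 and 0 passed. The same counts were 2 and 4 of 18 here, all higher. ICAM1, an adhesion ligand, was at 84.8 ± 4.7 CPM in tazemetostat mice and 65.4 ± 3.3 CPM in vehicle mice (log2 fold change 0.38, edgeR adjusted p = 0.35). IER3, an immediate-early gene, was at 7.85 ± 2.3 CPM in tazemetostat mice and 3.62 ± 0.92 CPM in vehicle mice (log2 fold change 1.12, edgeR adjusted p = 0.31). NFKBIE, an inhibitor of NF-kB, had a log2 fold change of 0.23 (edgeR adjusted p = 0.764). The stromal marker PDGFRB had 55, 43 and 25 counts in tazemetostat mice and 8, 16 and 19 in vehicle mice.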
